A study of Mus musculus with 15 samples.

Results

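Nexn, Lrrfip1, Map1b, Rock1, Nefh, Lmo7, Add1, Actn4, Flna and Rai14 encode proteins of the actin, microtubule and intermediate filament cytoskeleton. They were followed through mouse eggs and early embryos as fragments protected by ribosomes. The 10 genes were found by symbol among 55490 genes of the count table, 21443 of them protein-coding. They had been chosen by their measured shares in these same libraries, so their levels are given as a description. Ribosomes carried an HA tag on Rpl22, a protein of the large subunit, and were pulled down with anti-HA beads after RNase digestion. The donor females were B6D2F1 mice, and all groups, controls included, carried the tagged Rpl22. The tested females were Eif4e1b knockout (KO) and the controls Eif4e1b heterozygous (Het), so the controls also lacked 1 copy of this gene, which encodes an eIF4E-like cap-binding factor of the egg. The 15 libraries were M2 eggs (2 KO, 2 Het), PN5 zygotes (3 KO, 3 Het) and early 2-cell embryos (E2C; 2 KO, 3 Het), each a pool of eggs or embryos. The labels name the genotype of the mother and not that of the embryo, while mouse age and the driver of the tagged Rpl22 are not stated in the labels.

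The cytoskeleton has an unusual part in the egg. A cortex of actin and myosin holds the spindle at the cell surface, polar bodies are cut off by a contractile ring, and the pronuclei and the first cleavage depend on microtubules and actin. Actin cross-linkers such as filamin and alpha-actinin build the networks, adducin caps filaments at the membrane, and the kinase Rock1 drives contraction of myosin. Map1b binds microtubules and is best known from growing axons, as is Nefh, the heavy subunit of neurofilaments. Nexn (nexilin) binds actin filaments and is best known from the Z-disc of heart and skeletal muscle. Maternal mRNAs are stored in the egg, and their translation and decay change at maturation, fertilisation and the first cleavage.

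Library totals ran from 93222 to 1201146 counts. Counts in protein-coding genes made up 0.696% to 5.10% of a library, which is 5997 to 47397 counts in M2 eggs, 8614 to 39997 in PN5 zygotes and 1059 to 7795 in E2C embryos. E2C Het replicate 3 stood apart from the other E2C libraries, with 4.57% protein-coding counts against 0.696% to 1.78%, and the folds, limits and means it decides are given with and without it. Eif4e1b had 0 counts in all 15 libraries, which allows up to 0.363 CPM (counts scaled to a common library total) over them, so it gave no check of the genotype labels. The egg markers were weak: 7 of 18 had a count, 147 counts in all and 0% to 0.244% of protein-coding counts per library, and the egg coat genes Zp1, Zp2 and Zp3 were at 0. Of 12 early 2-cell markers 4 had a count, 11 counts in all. Cumulus and granulosa markers had counts for 9 of 24 genes, with summed shares of 0.0334% to 0.217% in M2 KO, against 0.211% to 0.909% in M2 Het, 0.288% to 0.908% in PN5 KO, against 0.0116% to 0.171% in PN5 Het, and 0% in E2C KO, against 0.0128% to 0.189% in E2C Het. The steroid enzyme Cyp11a1 held 561 of their 877 counts, while Fshr, Lhcgr and Amh were at 0. Muscle and fibroblast markers, among which Nexn would stand by its best-known role, had 23 counts over 5 of 14 genes, with Acta2, Tagln and Myh11 at 0, and blood and sperm markers had 1 count. The part of these markers in the results below was not tested.

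Values are percentages of the counts that a library had in protein-coding genes, with the SD over libraries. In these pools, fewer cells with an mRNA and less of it per cell cannot be told apart, and a share also moves when other mRNAs do. Shares are not divided by the length of the coding sequence, so they rank genes by the fragments they gave and not by level. Nothing in the labels says that the libraries of a group came from separate animals, and p-values then measure only the spread between these libraries. Intervals and limits for a count of 0 cover counting error only, since reads amplified by PCR without molecular identifiers are not independent molecules.

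The 10 genes together took a large part of the ribosome-protected mRNA, and Nexn alone gave 40.5% of their 26438 counts. Their summed share ran from 0.731% to 17.5% over the 15 libraries, with a median of 9.46%. It was 13.3 ± 4.51% in M2 KO and 13.9 ± 3.17% in M2 Het (n = 2 each). In PN5 zygotes it was 10.2 ± 1.54% in KO and 11.9 ± 4.90% in Het (n = 3 each). In E2C embryos it was 7.16 ± 2.71% in KO (n = 2) and 3.74 ± 2.64% in Het (n = 3), and 5.25 ± 0.611% in Het without replicate 3. The lowest value, 0.731%, was that of E2C Het replicate 3.

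The genes fell into a few that were seen everywhere and many that were sparse. Nexn, Lrrfip1, Map1b and Rock1 had counts in all 15 libraries. By mean share over the libraries Nexn stood at place 3 of all protein-coding genes with 4.09 ± 1.98%, Lrrfip1 at place 6 with 2.34 ± 1.82%, Map1b at place 9 with 1.67 ± 0.941% and Rock1 at place 13 with 1.17 ± 0.792%. Neighbours in this order differed by less than their SD. Nefh followed at place 58 with 0.238 ± 0.215% and counts in 11 libraries. Lmo7, Add1, Actn4, Flna and Rai14 had means of 0.0255% to 0.0702% and 26 to 302 counts in all. Single libraries decided some of these means: that of Actn4 was 0.0382%, and 0.0193% without E2C Het replicate 2. Add1 was at 0.0652%, and 0.0433% without E2C Het replicate 3. Rai14 was at 0.0255%, and 0.0157% without M2 Het replicate 1, and Flna at 0.0261%, and 0.0162% without PN5 Het replicate 1. All 10 passed the filter on low counts, which kept 495 genes. Its cutoff is scaled to library totals, so Actn4 passed on 3 and 5 counts in shallow E2C libraries. Add1 passed through M2 Het replicate 1 and E2C Het replicate 3 alone. Passing thus does not mean that a gene was well measured.

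Promoter sequence is shown for Lrrfip1 and Map1b, the genes with the most fragments whose start regions the RefSeq table (GRCm38.p6) holds. The lines give the 150 bases before an annotated start. The Lrrfip1 start shown is 1 of 2 in the table, and it lies inside the interval given for the gene below. Sequences run 5′ to 3′ on the strand of the gene, with CG dinucleotides in capitals.
Lrrfip1 (chr1:90998577-90998726, plus strand): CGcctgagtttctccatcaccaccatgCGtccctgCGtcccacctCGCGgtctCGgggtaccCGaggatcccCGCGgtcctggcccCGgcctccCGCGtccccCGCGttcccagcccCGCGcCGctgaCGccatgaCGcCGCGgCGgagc
Map1b (chr13:99516603-99516752, minus strand): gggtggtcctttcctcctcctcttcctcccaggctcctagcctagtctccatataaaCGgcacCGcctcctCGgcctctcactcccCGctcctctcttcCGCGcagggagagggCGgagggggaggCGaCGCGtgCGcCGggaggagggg
The first holds 22 CG dinucleotides and the second 12. In windows of 300 bases, the table held 10 start regions for 7 of the genes, with 5 to 36 CG dinucleotides, against a median of 7 over all 32851 promoters. Their GC content was 46% to 72%, with a median of 52.7% over all promoters. The motif TATAAA, searched on both strands, was found in the Map1b window and in 1 of 2 windows of Rai14, and in 13.6% of all promoters.

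Nexn (ENSMUSG00000039103, GRCm38 chr3:152236982-152266350) had the highest mean share of the 10 in all 6 groups, though in PN5 Het it was close to Lrrfip1 (4.32% and 4.31%). Its shares overlapped between the genotypes in M2 eggs and PN5 zygotes and did not in E2C embryos. It took 7.19% and 4.67% of the protein-coding counts in M2 KO, against 4.43% and 7.17% in M2 Het. In PN5 zygotes it took 4.98%, 4.98% and 2.69% in KO, against 3.93%, 2.90% and 6.13% in Het. The KO and Het values lay within the same range at these stages, and the ratio of mean shares, KO over Het, was 1.02 in M2 eggs and 0.976 in PN5 zygotes. In E2C embryos it took 2.96% and 4.93% in KO, against 2.27%, 1.99% and 0.0641% in Het. Both KO values lay above every Het value, and the mean share was 2.74-fold higher in KO. It was 1.85-fold higher without E2C Het replicate 3, where Nexn had 5 of 7795 counts. The KO libraries held 48 and 56 counts, with exact 95% binomial (Clopper-Pearson) intervals of 2.19% to 3.90% and 3.75% to 6.36%.

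Lrrfip1 (ENSMUSG00000026305, chr1:90996930-91128944), which binds the actin-remodelling protein flightless, was the only one of the 4 leading genes whose PN5 shares were lower in KO without overlap. It took 2.27%, 1.66% and 1.85% in PN5 KO, against 2.54%, 2.74% and 7.65% in PN5 Het. All 3 KO values lay below all 3 Het values, and the mean share was 2.24-fold lower in KO. Without PN5 Het replicate 3 it was 1.37-fold lower. In M2 eggs Lrrfip1 took 2.93% and 1.58% in KO, against 2.7% and 4.59% in Het, and the groups overlapped. Its E2C shares were 0.801% and 1.50% in KO, against 1.13%, 1.03% and 0.167% in Het, again with overlap.

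Map1b (ENSMUSG00000052727, chr13:99421464-99516602), the microtubule-binding protein of the set, took its largest shares in M2 eggs. They were 2.75% and 1.94% in M2 KO, against 3.06% and 3.21% in M2 Het, so that both KO values lay lower, by 1.33-fold in the mean. In PN5 zygotes it took 1.13%, 1.81% and 2.14% in KO, against 1.77%, 1.39% and 2.30% in Het. In E2C embryos it took 0.431% and 1.50% in KO, against 0.661%, 0.846% and 0.0641% in Het. The genotypes overlapped at both later stages.

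Rock1 (ENSMUSG00000024290, chr18:10064401-10182251), a kinase that acts on myosin, had higher shares in KO in both M2 eggs and PN5 zygotes. It took 3.12% and 1.41% in M2 KO, against 0.971% and 0.872% in M2 Het. In PN5 zygotes it took 1.34%, 2.71% and 0.965% in KO, against 0.615%, 0.780% and 0.743% in Het. Every KO value lay above every Het value at both stages, and the mean share was 2.46-fold higher in M2 KO and 2.35-fold higher in PN5 KO. Leaving out 1 library at a time gave 1.53-fold (without M2 KO replicate 1) to 3.38-fold (without M2 KO replicate 2) in M2 eggs. In PN5 zygotes the lowest value was 1.62-fold, without PN5 KO replicate 2. Its E2C shares were 0.801% and 1.06% in KO, against 0.661%, 1.45% and 0.0641% in Het, with overlap.

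**Figure D1:**
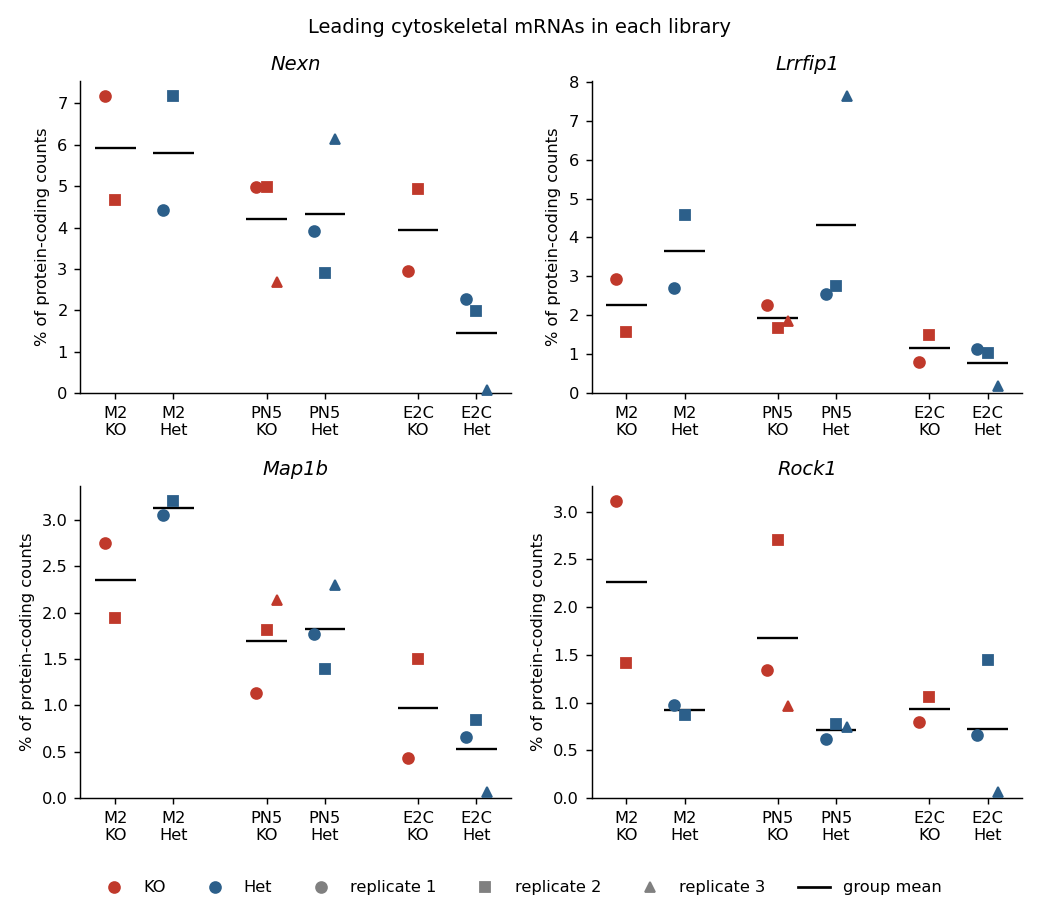
Shares of the protein-coding counts (percent, y axis) taken by Nexn, Lrrfip1, Map1b and Rock1 in each of the 15 libraries, by stage and genotype of the mother; symbols mark the replicate number and bars the group mean. Rock1 lies higher in KO than in Het in M2 eggs and PN5 zygotes, and E2C Het replicate 3 is the lowest library in all 4 panels.

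Nefh (ENSMUSG00000020396, chr11:4938754-4948064) was seen in every egg and zygote library and hardly at all in the 2-cell embryo. It took 0.434% and 0.369% in M2 KO, against 0.167% and 0.211% in M2 Het, a mean 2.12-fold higher in KO with no overlap. In PN5 zygotes it took 0.325%, 0.195% and 0.710% in KO, against 0.192%, 0.440% and 0.464% in Het, with overlap. In E2C embryos there was 1 count in the 2 KO libraries together, against 0 counts in the 3 Het libraries. Over the 10509 protein-coding counts of E2C Het, a count of 0 allows a share of up to 0.0285%. Replicate 3 gave 7795 of these counts, and without it the limit is 0.11% over 2714 counts.

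Lmo7, a protein of adherens junctions that links to actin, was found only in PN5 libraries among those measured here. It had 18, 0 and 90 counts in PN5 KO, against 62, 115 and 17 counts in PN5 Het. All libraries of M2 eggs and E2C embryos had 0 counts. The limit for 0 counts was 0.00562% in M2 KO and 0.00695% in M2 Het, and the PN5 means of 0.114% in KO and 0.237% in Het lay above these. The E2C limits were 0.109% in KO and 0.0285% in Het, or 0.11% in Het without replicate 3, so the E2C depth in KO could hardly show a difference.

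The membrane-skeleton protein Add1 (adducin) had 2 and 6 counts in M2 KO, against 36 and 11 counts in M2 Het, a mean share 4.82-fold lower in KO. It was 2.15-fold lower without M2 Het replicate 1 and 8.75-fold lower without M2 KO replicate 1. In PN5 zygotes it had 5, 2 and 0 counts in KO, against 4, 4 and 2 counts in Het. Its E2C counts were 0 and 1 in KO, against 1, 1 and 29 in Het. E2C Het replicate 3 thus held 29 of the 31 counts of its group.

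The actin cross-linkers Actn4 and Flna and the actin-binding Rai14 had few counts, and a few libraries held most of them. Actn4, an alpha-actinin, had 26 counts over 7 libraries, with at most 6 in 1 library. Flna, a filamin, had 43 counts in M2 KO replicate 2, 16 in PN5 KO replicate 2 and 61 in PN5 Het replicate 1, and 0 in the other libraries. Rai14 had 0 counts in both M2 KO libraries, against 34 and 8 counts in M2 Het, so its mean share was at least 17.7-fold lower in M2 KO (limit of 3 counts over the group). That bound was 1.98-fold without M2 KO replicate 2, 6.4-fold without M2 Het replicate 1 and 28.9-fold without M2 Het replicate 2. In PN5 zygotes Rai14 had 13 counts in KO, all in replicate 2, against 24, 3 and 0 counts in Het, and 0 counts in all E2C libraries.

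**Figure D2:**
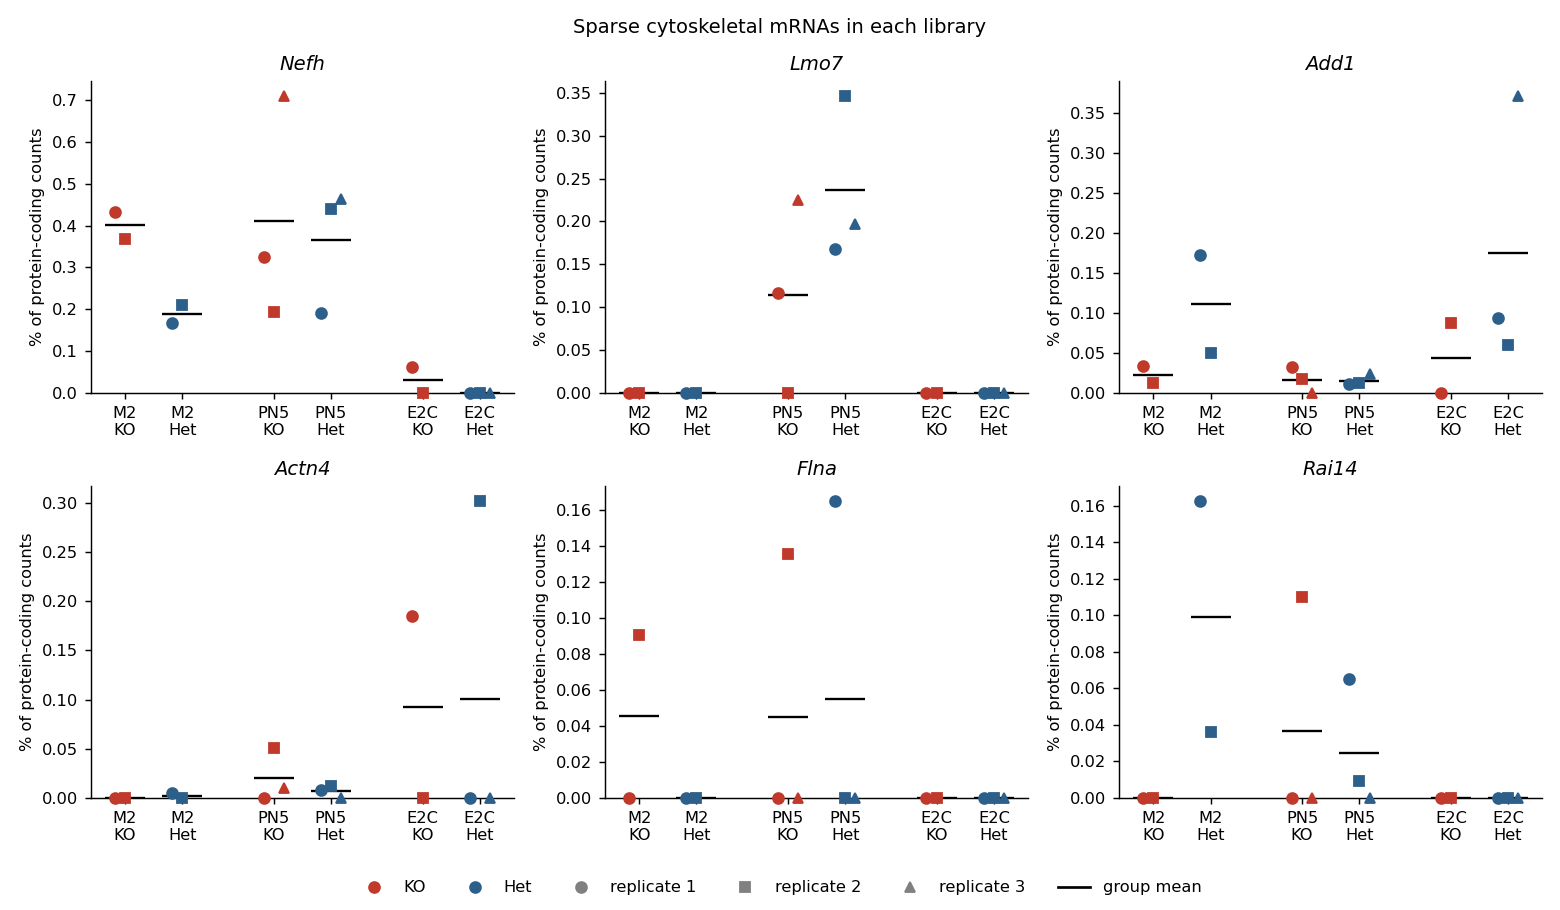
Shares of the protein-coding counts (percent, y axis) of Nefh, Lmo7, Add1, Actn4, Flna and Rai14 in each library, by stage and genotype, with bars at the group mean. Nefh has points above 0 in every M2 and PN5 library, Lmo7 in 5 PN5 libraries, and the highest Add1 point is E2C Het replicate 3.

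KO was compared with Het at each stage across the whole table with edgeR's quasi-likelihood test, to ask which mRNAs were bound differently without the maternal factor. In M2 eggs 0 of 495 genes passed at an adjusted p under 0.05 (0%), with 6 genes at an unadjusted p under 0.05. DESeq2 called 2 genes and limma-voom 0, none of the 10 among them. The shares of 5 of the 10 did not overlap between KO and Het, which held for 22.8% of 425 protein-coding genes. Of these, Rock1 and Nefh were higher and Map1b, Add1 and Rai14 lower in KO. The smallest p of the set was that of Rai14, with a fitted log2 difference of -7.10 (SE 3.45, adjusted p = 1, edgeR), a value that rests on 0 counts in KO.

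In PN5 zygotes 0 of 495 genes passed in edgeR (0%), with 35 at an unadjusted p under 0.05, and DESeq2 called 2 and limma-voom 0, none of the 10 among them. The shares of 2 of the 10 did not overlap, against 7.06% of the 425 genes: Rock1 was higher and Lrrfip1 lower in KO. Lrrfip1 had the smallest p of the set, with a fitted log2 difference of -1.17 (SE 0.864, adjusted p = 1, edgeR).

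In E2C embryos 0 of 495 genes passed in edgeR (0%), with 25 at an unadjusted p under 0.05, and DESeq2 called 4 and limma-voom 0, none of the 10 among them. Only Nexn of the 10 did not overlap between KO and Het, which held for 11.1% of the 425 genes. The smallest p of the set was that of Nefh, with a fitted log2 difference of 4.10 (SE 2.23, adjusted p = 0.897, edgeR), which rests on the 1 count in KO. The median log2 fold change of the 10, KO over Het, was -0.46 in M2 eggs, -0.17 in PN5 zygotes and 0 in E2C embryos, beside -0.02, 0 and 0 over the 495 genes.

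The ratio of 2 genes within a library does not depend on how libraries are scaled. The pairs below were chosen after their values were seen, and the ratios are given with no test. Both share the Lrrfip1 counts, and overlap was not counted over all pairs of genes. Map1b over Lrrfip1 was also computed, and the genotypes overlapped at every stage. Nexn over Map1b was 2.61 and 2.40 in M2 KO, against 1.45 and 2.24 in M2 Het, and overlapped at the later stages. Nexn had 2.45 and 2.96 counts for each Lrrfip1 count in M2 KO, against 1.64 and 1.56 in M2 Het. The ratio was 2.19, 3.0 and 1.46 in PN5 KO, against 1.55, 1.06 and 0.801 in PN5 Het, where the lowest KO library lay just below the highest Het library. In E2C embryos it was 3.69 and 3.29 in KO, against 2.00, 1.94 and 0.385 in Het. The KO libraries thus lay above the Het libraries in M2 eggs and E2C embryos and overlapped in PN5 zygotes.

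Rock1 had 1.06 and 0.894 counts for each Lrrfip1 count in M2 KO, against 0.360 and 0.190 in M2 Het. In PN5 zygotes the ratio was 0.591, 1.63 and 0.522 in KO, against 0.242, 0.284 and 0.0971 in Het. The genotypes did not overlap at these stages. In PN5 zygotes this follows from the shares above, where Rock1 was higher and Lrrfip1 lower in KO without overlap. In E2C embryos it was 1.00 and 0.706 in KO, against 0.583, 1.41 and 0.385 in Het, with overlap.

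**Figure D3:**
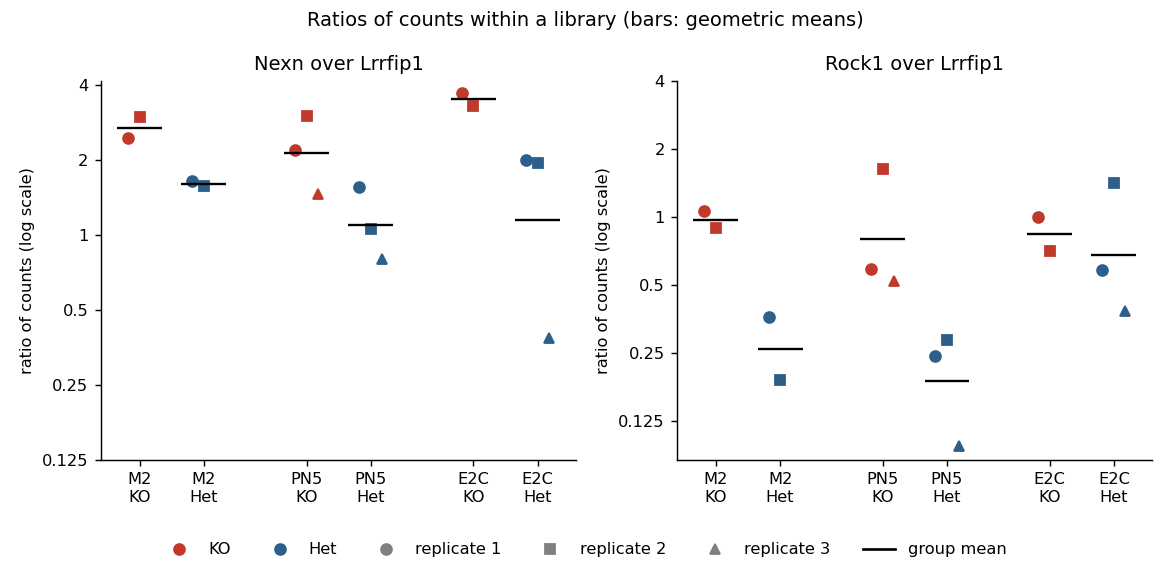
Counts of Nexn (left) and Rock1 (right) for each count of Lrrfip1 in the same library, on a log axis, by stage and genotype; bars are geometric means of the group. In M2 eggs both ratios are higher in both KO libraries than in both Het libraries, with Rock1 over Lrrfip1 at 1.06 and 0.894 in KO and at 0.360 and 0.190 in Het.

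The stages were compared within a genotype, to follow the mRNAs from egg to embryo. Successive comparisons share their PN5 libraries. Between PN5 zygotes and M2 eggs the mean shares of the 4 leading genes differed by at most 1.72-fold. The mean share of Nexn was 4.22 ± 1.32% in PN5 KO and 5.93 ± 1.78% in M2 KO, and 4.32 ± 1.65% in PN5 Het and 5.80 ± 1.94% in M2 Het. In Het, 4 of the 10 did not overlap between PN5 and M2, against 16.5% of the 425 genes: Lmo7 was at least 34.1-fold higher in PN5, Map1b 1.72-fold, Rock1 1.29-fold and Add1 7.21-fold lower. The Lmo7 bound was 17.6-fold without M2 Het replicate 1 and 16.5-fold without M2 Het replicate 2. Add1 was 3.22-fold lower without M2 Het replicate 1 and 11.2-fold lower without M2 Het replicate 2. In KO, 0 of the 10 did not overlap, against 8% of the 425 genes, and Lmo7 had a mean share at least 20.3-fold higher in PN5 with 0 counts in 1 of 3 libraries. That bound was 10.4-fold without PN5 KO replicate 3, and 2.28-fold without M2 KO replicate 2, which holds most of the M2 KO depth.

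In edgeR, 0 of 495 genes passed between PN5 and M2 in Het (0%, 17 at an unadjusted p under 0.05), where DESeq2 called 4 and limma-voom 0. In KO 0 of 495 passed as well (0%, 21 at an unadjusted p under 0.05), where DESeq2 called 1 and limma-voom 0. None of the 10 was among those calls. Lmo7 had the smallest p of the set in both genotypes, with a fitted log2 difference of 7.56 (SE 2.7, adjusted p = 1) in KO and 8.52 (SE 2.75, adjusted p = 0.855) in Het. Both are fitted against 0 counts in M2 eggs and are no bounds. Lmo7 passed the low-count filter only through its PN5 libraries, so its fits in these comparisons are no evidence of a difference.

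E2C embryos had lower shares of the leading genes than PN5 zygotes in Het. Mean shares of Nexn were 1.44 ± 1.2% in E2C Het and 4.32 ± 1.65% in PN5 Het (n = 3 each), 3.0-fold lower, and 2.03-fold lower without E2C Het replicate 3. Lrrfip1 was at 0.776 ± 0.530% in E2C Het and 4.31 ± 2.89% in PN5 Het, 5.56-fold lower, and 3.99-fold lower without that library. It was 3.41-fold lower without PN5 Het replicate 3. Map1b was at 0.524 ± 0.409% in E2C Het and 1.82 ± 0.457% in PN5 Het, 3.47-fold lower, and 2.41-fold lower without E2C Het replicate 3. Rock1 did not share this difference, with 0.725 ± 0.695% in E2C Het and 0.713 ± 0.0867% in PN5 Het. Its ratio of 1.02 became 0.509 without E2C Het replicate 2 and 1.48 without E2C Het replicate 3.

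Among the sparse genes, Nefh was at least 12.8-fold and Lmo7 at least 8.31-fold lower in E2C Het than in PN5 Het. These bounds rest on the depth of E2C Het replicate 3, and without it they are 3.31-fold for Nefh and 2.15-fold for Lmo7. Add1 was 11.4-fold higher, and 5.04-fold higher without E2C Het replicate 3. In all, 6 of the 10 did not overlap between E2C Het and PN5 Het, 1 higher and 5 lower, against 15.8% of the 425 genes. Nefh and Lmo7 had 0 counts in E2C Het and passed the low-count filter only through earlier stages. Add1 passed it only with E2C Het replicate 3, where it was highest. The 10 were also chosen by their shares, so this count describes them and is no test. In E2C KO only Lrrfip1 and Nefh did not overlap with PN5 KO, against 22.8% of the 425 genes. Lrrfip1 was 1.68-fold lower in E2C KO (1.15 ± 0.493%, n = 2) than in PN5 KO (1.93 ± 0.315%, n = 3), and the lower share of Nefh rests on 1 count. Nexn was at 3.95 ± 1.4% in E2C KO and 4.22 ± 1.32% in PN5 KO, and the groups overlapped. Whether the stage difference of Nexn differed between KO and Het was not tested.

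In edgeR 0 of 495 genes passed between E2C Het and PN5 Het (0%), with 97 at an unadjusted p under 0.05, or 19.6%. Among them were 5 of the 10: Nexn, Lrrfip1, Map1b, Nefh and Lmo7. Nefh and Lmo7 had 0 counts in E2C Het, and Lmo7 passed the low-count filter only through PN5 libraries. The 10 were also chosen by their shares, so the 5 are no test of the set. Nefh, which passed the low-count filter through its egg and zygote libraries, had the smallest p of the set, with a fitted log2 difference of -9.09 (SE 1.90, adjusted p = 0.139, edgeR), fitted against 0 counts. The median log2 fold change was -3.43 over the 10 and -1.90 over the 495 genes, and each fitted difference stands beside that of most genes. The fit of Rock1, -1.25, lay above that median. DESeq2 called 40 genes (8.08%), with Nefh, Lrrfip1 and Map1b lower and Add1 higher in E2C Het among them. Limma-voom called 11 (2.22%), with Nefh, Lrrfip1, Map1b and Nexn lower in E2C Het among them. Both calls of Nefh are fitted against 0 counts in E2C Het and are no evidence of a difference. Of the 31 Add1 counts in E2C Het, 29 were in replicate 3. Add1 passed the low-count filter only with that library, so its call is no evidence of a difference either.

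Between E2C KO and PN5 KO, 0 of 495 genes passed in edgeR (0%), with 43 at an unadjusted p under 0.05, or 8.69%. Among them were 3 of the 10, Lrrfip1, Map1b and Nefh, and this is no test of a set chosen by its shares. DESeq2 called 13 and limma-voom 0, none of the 10 among them. Nefh had the smallest p of the set, with a fitted log2 difference of -5.18 (SE 1.67, adjusted p = 0.543, edgeR), which rests on 1 count in E2C KO. The median log2 fold change was -2.39 over the 10 and -1.60 over the 495 genes.

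**Figure D4:**
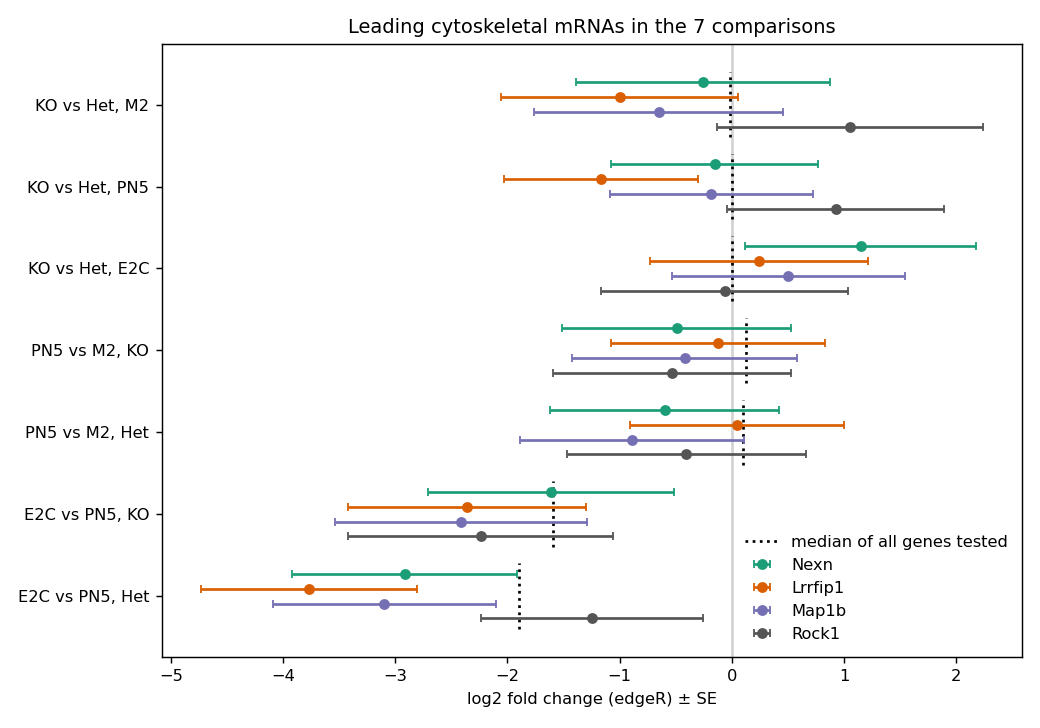
Log2 fold changes from edgeR (x axis) with their SE for Nexn, Lrrfip1, Map1b and Rock1 in the 7 comparisons, with the group named first on top of the fold; dotted lines mark the median over the 495 genes. None passed an adjusted p of 0.05, and in the comparison of E2C with PN5 in Het the median of all genes lies at -1.90, with Rock1 above it and the other 3 genes below it.

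The lists of other cytoskeletal genes each summed to fewer counts than the 26438 of the 10. The 10 were chosen by their shares in these libraries, so this is no result about them. Gene by gene it did not hold, since Rdx had more counts than Nefh with 898. Of 95 listed actin-binding and contractile genes 42 had a count and 12 were tested, with 3816 counts in all and 0.104% to 3.39% of protein-coding counts per library. The largest were Rdx (radixin, which ties actin to the membrane) with 1389 counts, Dst with 414, Cald1 with 335 and Plec with 182. Rdx took a mean of 1.07% in E2C KO, on 26 and 6 counts (1.60% and 0.529%), and had 0 counts in E2C Het. The limit for 0 counts in E2C Het was 0.0285%, or 0.11% without replicate 3. Rdx had counts in 9 of 15 libraries, with 39.1% of them in 1 library. Of 66 microtubule and motor genes 29 had a count and 9 were tested, with 2334 counts, led by Clip1 (431), Golga4 (340), Kif20b (283) and Map7 (177). Kif20b, a kinesin, took a mean of 0.246% in E2C KO and 0.512% in E2C Het, but 105 of its 107 E2C Het counts were in replicate 3. Without that library the Het mean was 0.0944%, below KO.

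Intermediate filaments and the lamina were nearly unseen apart from Nefh. Of 26 such genes 5 had a count and 1 was tested, with 119 counts, led by Dsp (86), Vim (22), Synm (6) and Des (4). None of the tested genes of these 3 lists passed in edgeR in any of the 7 comparisons.

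Several abundant genes followed Nexn and Lrrfip1 across the libraries. Among 424 other protein-coding genes, the Spearman correlation of log2(CPM + 1) with Nexn over the 15 libraries was highest for Mphosph8 (0.957), Top1 (0.935) and Eif5b (0.918). It was 0.875 for Lrrfip1 and 0.836 for Map1b. With Lrrfip1 it was highest for Top1 (0.933), Akap7 (0.932) and Ppfia1 (0.886). The points share library depth and the share of protein-coding counts, so these values describe likeness only. Of the 10 genes, Actn4 had the lowest Spearman correlation with Nexn, -0.385. Actn4 had 26 counts and passed the low-count filter only through E2C KO replicate 1 and E2C Het replicate 2. Nexn was low in those libraries, so this value is no result about Actn4.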

How the data were processed

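Ribosome-protected fragments from 15 libraries of 6 groups (stage by genotype of the mother, from the labels) were analysed. The deposited table holds estimated counts per gene as whole, unscaled numbers. GRCm38, deepTools 3.5.1, StringTie 2.1.4, STAR 2.7.6a and cutadapt are named, per the submitters' processing notes. The counting steps, the use of strand and the handling of shared reads are not stated, so reads of overlapping, antisense or related genes were not separated. The estimated counts were rounded on reading, which changed nothing.

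Of 55490 genes, 5763 had a count. Biotypes and coordinates came from RefSeq (GRCm38.p6), matched by symbol for 39101 genes and by an older symbol for 164, with 16225 unmatched. Shares are counts over the protein-coding counts of the library. Totals ran from 93222 to 1201146 counts. A count of 0 was read as under 3 counts over the group.

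Tests used edgeR 4.0.16 in R 4.3.3: filterByExpr (minimum count 10), TMM, 1 quasi-likelihood fit with 6 group means, 9 residual degrees of freedom, and Benjamini-Hochberg adjustment over 495 genes at 0.05. The SE is the log2 fold change over the square root of the F statistic. DESeq2 1.42.0 and limma-voom (limma 3.58.1) were alternatives. Libraries of a group differed by more than sampling noise. The members and lists were chosen with earlier results of these data known. The rule named every member, the fold of the member with the smallest p where none was called, and up to 4 genes of each list by summed count. 1 planned gene list is not reported here. The statistics were tested on simulated data.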

Additional observations from a re-analysis of the deposited data

How the results depend on the processing

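Counts of called genes were 0 in edgeR in all 7 comparisons and depended on the tool. DESeq2 called 2 genes for KO against Het in M2 eggs, 2 in PN5 zygotes and 4 in E2C embryos, 1 for PN5 against M2 in KO and 4 in Het, and 13 for E2C against PN5 in KO and 40 in Het. Limma-voom called 11 for E2C against PN5 in Het. Without the low-count filter 1 gene was called for KO against Het in E2C embryos, and for E2C against PN5 1 in KO and 3 in Het. With only the 2 groups compared in the fit, 1 and 3 were called for KO against Het in E2C embryos and for E2C against PN5 in Het. Leaving out 1 library at a time gave 0 to 3 calls for E2C against PN5 in KO and 0 to 33 in Het, and 0 to 1 for PN5 against M2 in KO and 0 to 4 in Het. For KO against Het it gave 0 to 0 in M2 eggs, 0 to 8 in PN5 zygotes and 0 to 1 in E2C embryos. Leaving out a library of a group of 2 lowered the group size of the filter and raised the genes tested from 495 to between 839 and 1058. Of the fold changes named, 151 of 159 values under the alternatives kept their direction and side of the threshold. Of the others, 0 reversed and 8 passed, all for Nefh in E2C against PN5 in Het. All but Lrrfip1 in PN5 zygotes and Nefh in E2C against PN5 in KO are fitted against a group at 0 counts. Their direction could hardly reverse, so the absence of reversals is no support for them. Of the other genes of the set, edgeR called Lrrfip1 in that comparison without M2 KO replicate 1, E2C KO replicate 1 or E2C KO replicate 2, and Nexn without E2C KO replicate 1. For Nefh, DESeq2 gave -5.71 (adjusted p = 0.00116) and limma-voom -5.29 (adjusted p = 0.0361). The remaining 6 of the 8 Nefh values were fits without 1 library of M2 KO, M2 Het or E2C KO. Nefh had 0 counts in E2C Het and passed the low-count filter through its egg and zygote libraries. Its passes are no evidence of a difference.

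Scaling moved the median log2 fold change of all genes for E2C against PN5 in Het, which was -1.90 with TMM, -1.49 with library totals only and -0.82 with DESeq2 size factors. In KO it was -1.60 with TMM, -1.30 with library totals only and -0.84 with DESeq2 size factors. Limma-voom, which also used TMM, gave 0.27 in KO, a difference of the fit and not of the scaling. In Het, Nexn, Lrrfip1 and Map1b stayed below the median under these scalings, at -2.02, -2.81 and -2.18 with DESeq2 size factors. For KO against Het in PN5 zygotes Nexn was at -0.15 with TMM and 0.33 with library totals only, so its direction was not settled. A replicate block gave 0 calls in all 7 comparisons, with Nefh at -9.56 (adjusted p = 0.278) for E2C against PN5 in Het. Libraries with the same number deviated together with correlations of -0.324 to 0.104, which gave no sign that the numbers pair the samples. Groups of 2 or 3 libraries cannot settle this, since with 2 the deviations mirror each other. A crossed block in M2 eggs, added after seeing the data, also gave 0 calls.

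Protein sequence features and levels per kilobase of coding length, both planned, were not run. The reference data used here held no protein sequences or coding lengths. Alternatives moved all 170 mean shares by under 1 SD. Leaving out 1 of 15 libraries cannot exceed that, and moved Actn4 from 0.0382% to 0.0193%. For the sparse genes the SD exceeds the mean. E2C embryos had 1059 to 7795 protein-coding counts, so a gene at 0 there is known only to lie under the limit for 3 counts. Groups of 2 or 3 libraries limit the precision of all folds.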
